A study of Mus musculus with 18 samples.

Results

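The 6 mouse embryos described here carried 1 Insm1 knockout allele and 1 intact allele, and they were set against 8 wildtype embryos with both alleles intact. These 14 arrays are part of a series of 18, in which the other 4 arrays came from embryos homozygous for the knockout. RNA was taken at stage E13.5, in mid-gestation, from the dorsal telencephalon, the roof of the forebrain from which the cerebral cortex grows, and each embryo gave 1 whole-transcript array. Strain, litter, sex and the design of the mutant allele are not given in the labels, which name no treatment for any genotype. Every p-value therefore measures the spread between these embryos, and the number of arrays limits the precision.

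Insm1 encodes a zinc finger transcription factor that acts mostly as a repressor, through a short SNAG domain that recruits the histone demethylase Kdm1a and its Rcor partners. It is switched on for a short time as neural progenitors divide to give neurons, and in the developing cortex it is best known in basal progenitors, the cells that leave the ventricular surface and divide once more before they form neurons. A heterozygous embryo keeps 1 working copy, so the comparison with wildtype asks how far transcript levels follow the number of copies.

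The measurements are log2 signals, on which 1 unit stands for a factor of 2. Of 23238 probe sets in the table, 16661 were tested, and their median level was 2.13. Cortical genes were at high levels. Tbr1, a factor of deep layer neurons, lay between 7.25 and 7.54 in heterozygous embryos and between 7.35 and 7.70 in wildtype embryos. Among markers of the neighbouring ventral telencephalon, Dlx1 spread from 1.35 to 4.02 in heterozygous and from 1.46 to 3.76 in wildtype embryos. In bulk tissue, fewer cells of a type and less RNA per cell cannot be told apart.

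One heterozygous array stood apart. Its 75th percentile (replicate 6) was 4.50, against 4.69 to 4.78 in the other heterozygous arrays and 4.67 to 4.87 in wildtype. The mean of 13 hypoxia response genes was 4.97 in it, against 3.58 to 3.78 in the other heterozygous and 3.50 to 3.81 in wildtype embryos. Homozygous replicate 2 also stood apart in this mean, at 5.01 against 3.66 to 3.75 in the other homozygous embryos. Values without heterozygous replicate 6 are given beside the list medians that it moved. By the Y-linked gene Eif2s3y, 3 of 6 heterozygous and 5 of 8 wildtype embryos were male.

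Insm1 itself was lower in heterozygous embryos. The log2 levels in the heterozygous embryos were 4.02 at the lowest, 4.89 at the median and 5.17 at the highest, against 4.84, 5.35 and 5.77 in the wildtype embryos. All 6 heterozygous embryos lay below the wildtype median and 2 lay below every wildtype embryo, so the groups overlapped. The difference of the log2 means was -0.57 (SE 0.18, 95% interval -0.94 to -0.20). A two-sided exact permutation test of this single gene gave p = 0.0107, where 3003 arrangements allow no p below 0.000666. Over all probe sets the limma adjusted p was 0.641.

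On the linear scale, Insm1 averaged 28.1 ± 6.52 in heterozygous (SD, n = 6) and 10.1 ± 2.22 in homozygous embryos (SD, n = 4), against 41.6 ± 9.29 in wildtype embryos (SD, n = 8). The heterozygous mean was thus 67.5% and the homozygous mean 24.4% of wildtype, and the midpoint of homozygous and wildtype was 62.2%. Insm1 was measured by a single probe set, and where its probes lie relative to the deletion is not stated in these sources. On the log2 scale the heterozygous mean lay 0.44 above the midpoint of the other genotypes (SE 0.17, 95% interval 0.09 to 0.79), with a limma adjusted p of 0.814 over all probe sets. Part of this log2 distance comes from the scale, since a level at the linear midpoint (25.85) also lies above the log2 midpoint (4.33). Without replicate 6 this distance was 0.59 and the difference from wildtype was -0.42 (exact permutation p = 0.0249). Among males the difference from wildtype was -0.78 (3 heterozygous, 5 wildtype) and among females -0.33 (3 of each), with no test at these sizes.

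**Figure D1:**
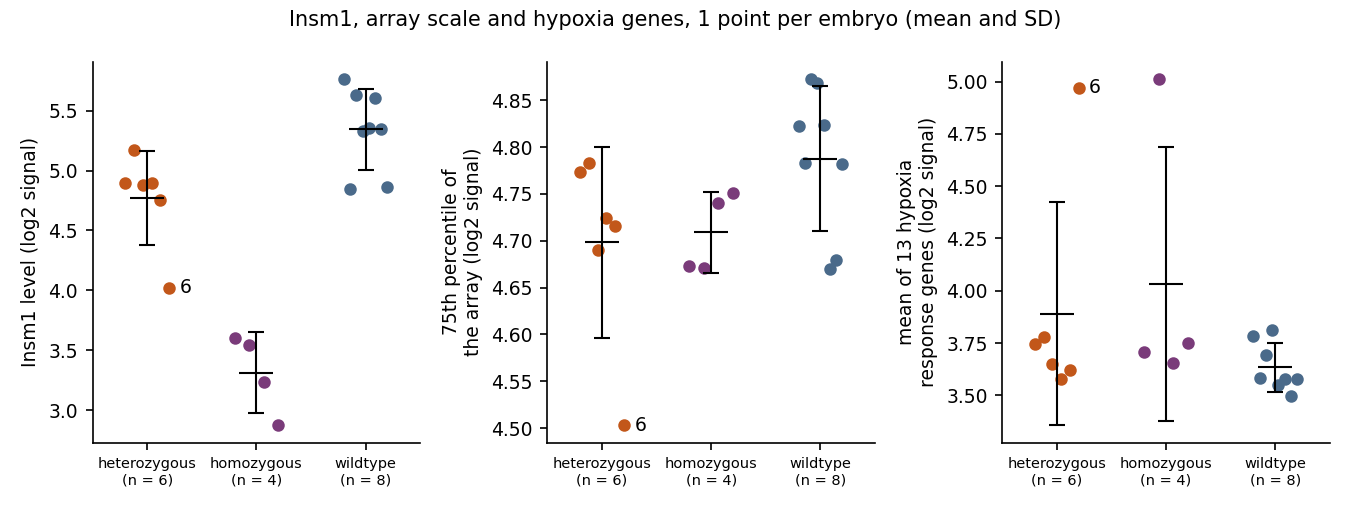
Insm1 level, the 75th percentile of each array and the mean of 13 hypoxia response genes (all log2 signal), with 1 point per embryo and the mean and SD of each genotype. The 6 heterozygous embryos lie below the wildtype median for Insm1, and heterozygous replicate 6, marked 6, is lowest in its group for Insm1 (4.02) and for the 75th percentile (4.50) and highest for the hypoxia genes (4.97).

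No transcript passed the test between heterozygous and wildtype embryos. Limma called 0 of 16661 probe sets (0%) at an adjusted p under 0.05, and the smallest adjusted p was 0.41. At an unadjusted p under 0.05 there were 1245 (7.47%), of which 854 (5.13%) were lower and 391 (2.35%) higher in heterozygous embryos. None of the single genes described below is therefore called, and their values are given as measured differences.

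The size of what could have been missed is set by the intervals. For 16159 probe sets (97.0%) the whole 95% interval lay within a 1.5-fold difference either way, and for 16603 (99.7%) within 2-fold. These shares include the 8330 probe sets below the median level, whose own median level was 0.646. For such dim probe sets a narrow interval bounds the signal and not the transcript. The median absolute difference was 0.067 and the median SE 0.0789. In data simulated at these group sizes, 14 of 67 log2 changes of 0.25 were recovered, 51 of 67 of 0.5, and 65 of 66 of 1. The simulated noise was independent between arrays, without a shared shift or an array that stood apart. Changes were planted only in brighter probe sets. These recovered shares therefore do not carry over to the real arrays, where Insm1 differed by -0.57 with a limma adjusted p of 0.641.

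The lower means were mostly those of brighter probe sets. Over all levels 60.5% of means were lower. At or above the median level, 79.8% of probe sets had a lower mean in heterozygous embryos, with a median difference of -0.07. Below the median level the share was 41.2% and the median difference 0.02. At an unadjusted p under 0.05, the brighter 8331 held 693 lower (8.32%) and 29 higher (0.348%). Rescaling moved these shares. Quantile normalization of the deposited values left 353 lower (2.12%) and 519 higher (3.12%) among all probe sets, with 1.84% lower and 3.01% higher among the brighter ones. Centring each array on its median left 269 lower and 1391 higher, with 229 lower and 188 higher among the brighter ones. With the 75th percentile of each array as a covariate there were 427 lower and 686 higher, with 322 and 309 among the brighter ones. Without heterozygous replicate 6 there were 466 lower (2.8%) and 371 higher (2.23%), with 4.14% lower and 0.6% higher among the brighter ones. Lower means among the 8331 brighter probe sets numbered 6648 with the deposited values and 5848 without replicate 6. They numbered 4251 after quantile normalization, 4677 after median centring and 3623 with the covariate. A count of lower genes in a list is read below against these shares and counts.

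**Figure D2:**
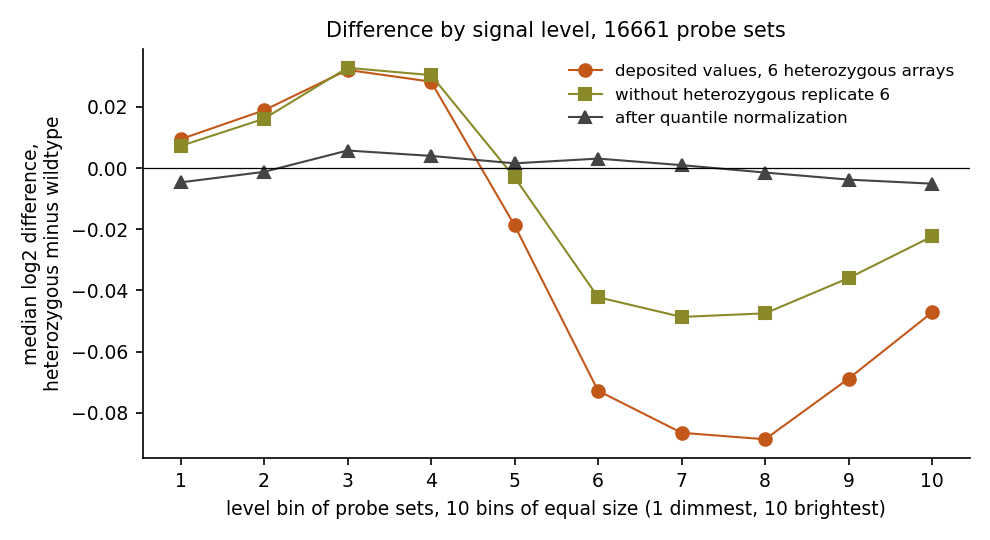
Median log2 difference, heterozygous minus wildtype, in 10 bins of equal size of the 16661 probe sets by mean level, from the dimmest (1) to the brightest (10). With the deposited values the median is -0.09 in bins 7 and 8 and 0.03 in bin 3, it is nearer 0 in the bright bins without heterozygous replicate 6, and it stays near 0 throughout after quantile normalization.

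The genes with the smallest unadjusted p among the brighter probe sets were named by a rule, 12 in each direction. The lower ones were led by E2f8, an atypical E2F factor that represses cell cycle genes late in S phase. Its levels were 2.64, 3.20 and 3.31 (lowest, median, highest) in heterozygous embryos, against 3.38, 3.49 and 3.74 in wildtype embryos. No heterozygous embryo overlapped a wildtype one, and the difference was -0.41 (SE 0.09, limma adjusted p = 0.41). The same separation held for 1700025G04Rik, a gene without a named function, at 3.50, 3.96 and 4.04 in heterozygous against 4.07, 4.32 and 4.50 in wildtype embryos. It differed by -0.43 (SE 0.10, limma adjusted p = 0.41). Both differences shrank after quantile normalization, to -0.32 and -0.34.

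Cep128, a protein of the centriole appendages, had 3.61, 3.66 and 3.78 in heterozygous and 3.77, 3.93 and 4.01 in wildtype embryos, a difference of -0.23 (SE 0.05). Only 1 heterozygous embryo reached the wildtype range. Mcph1, microcephalin, which controls chromosome condensation, had 3.44, 3.56 and 3.68 in heterozygous and 3.67, 3.77 and 3.90 in wildtype embryos, a difference of -0.22 (SE 0.05). Its ranges overlapped slightly, with 4 of 6 heterozygous embryos below all wildtype embryos.

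Atp11a, a flippase that moves phospholipids across the plasma membrane, lay at 4.43, 4.51 and 4.63 in heterozygous and at 4.66, 4.71 and 4.83 in wildtype embryos, without overlap (difference -0.20, SE 0.05). Tmem30a, the shared subunit of such flippases, was among the higher means, with 6.29, 6.41 and 6.52 in heterozygous and 5.98, 6.29 and 6.39 in wildtype embryos (difference 0.15, SE 0.06). Its ranges overlapped. Epn2, an endocytic adaptor, differed by -0.26 (SE 0.07), and Iqgap1, a cytoskeletal scaffold, by -0.23 (SE 0.06). The remaining lower genes were the kinase gene Map3k9 (-0.25), the splicing helicase gene Ddx46 (-0.22), Wdr46 of the nucleolus (-0.37), Ccser2 (-0.29) and Lrrc61 (-0.43). In each of these, all 6 heterozygous embryos lay below the wildtype median. The limma adjusted p of the 12 lower genes ran from 0.41 to 0.578.

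Among the higher genes Igfbp7 came first, a secreted binding protein of insulin-like growth factors found around blood vessels. Its levels were 2.55, 2.64 and 2.71 in heterozygous embryos, against 2.30, 2.38 and 2.52 in wildtype embryos. The groups did not overlap, and the difference was 0.24 (SE 0.06, limma adjusted p = 0.41). Macrod1, an enzyme that removes ADP-ribose from proteins, was also apart, at 2.86, 2.94 and 3.12 in heterozygous against 2.66, 2.72 and 2.80 in wildtype embryos (difference 0.23, SE 0.06).

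A wider spread marked Pym1, which takes exon junction complexes off messenger RNA. It had 3.98, 4.77 and 5.01 in heterozygous and 4.22, 4.26 and 4.34 in wildtype embryos, a difference of 0.39 (SE 0.13). The heterozygous embryos held both the 5 highest values and the lowest, while the wildtype embryos lay close together. Socs1, an inhibitor of cytokine signalling, had 2.64, 3.07 and 3.33 in heterozygous and 2.23, 2.53 and 2.96 in wildtype embryos (difference 0.43, SE 0.15), with 4 of 6 above all wildtype embryos. Dlk2, a relative of the Notch ligands, differed by 0.24, the ATP synthase subunit gene Atp5j2 by 0.40 and the imprinted gene Peg12 by 0.19. The others were Ccdc107 (0.24), the homeobox gene Hmx1 (0.17), the matricellular protein gene Ccn5 (0.18) and Cnfn (0.19). The limma adjusted p of the 12 ran from 0.41 to 0.658.

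**Figure D3:**
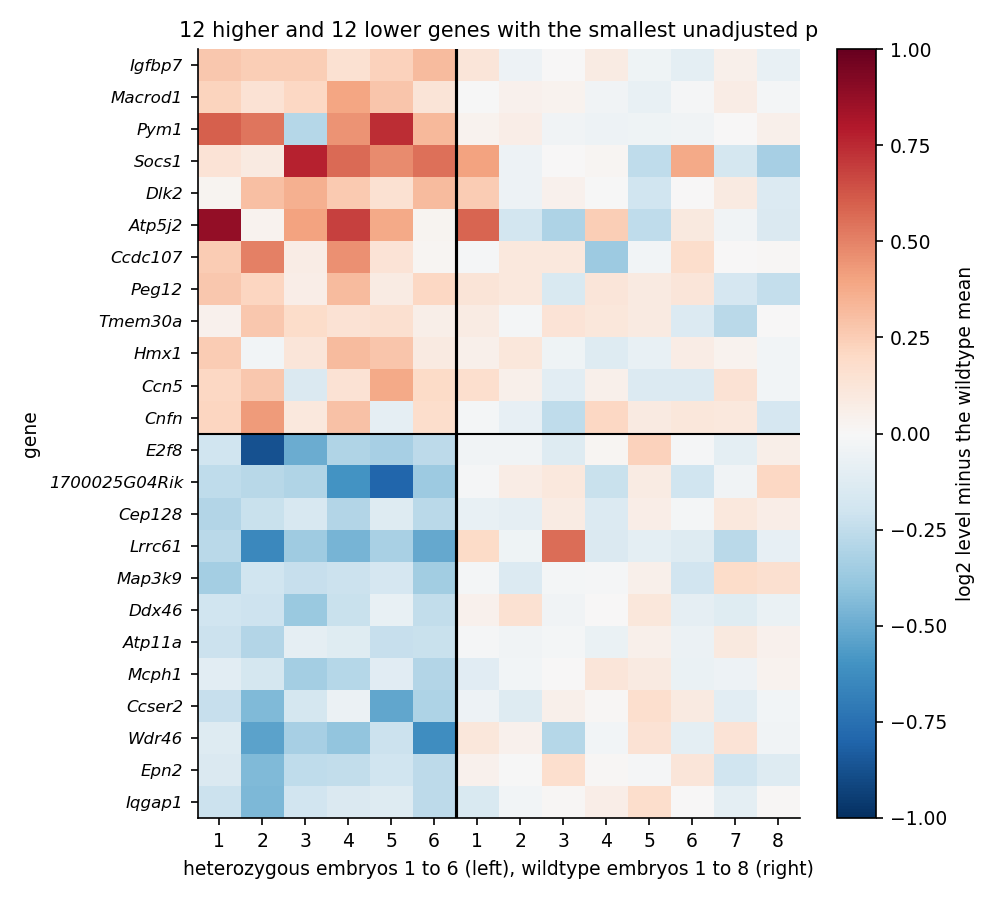
Log2 level of each embryo minus the wildtype mean for the 12 higher (top) and 12 lower (bottom) genes with the smallest unadjusted p at or above the median level, heterozygous embryos 1 to 6 on the left and wildtype embryos 1 to 8 on the right. The genes were picked for this difference, so the split in colour follows from the choice, and the plot shows how evenly the 6 heterozygous embryos share it: evenly for Igfbp7 and Atp11a, unevenly for Pym1 and Socs1.

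At any level, the smallest p of the whole table belonged to a dim probe set. Dkk4, a secreted Wnt inhibitor, had 0.76, 0.91 and 0.94 in heterozygous and 0.51, 0.69 and 0.72 in wildtype embryos, without overlap (difference 0.24, SE 0.05, limma adjusted p = 0.41). Nxnl1, a gene known from the retina, had 0.65, 0.77 and 0.95 in heterozygous and 0.36, 0.51 and 0.74 in wildtype embryos (difference 0.27, SE 0.06). Both lie well under the median level of 2.13.

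Groups that did not overlap were rare. In 21 probe sets (0.126%) all heterozygous embryos lay below all wildtype embryos, and in 16 (0.096%) above. The further genes named here were chosen after their values were known. The lower ones included Akna, a centrosomal protein that organizes microtubules, with 3.75, 4.33 and 4.43 in heterozygous and 4.43, 4.59 and 4.78 in wildtype embryos (difference -0.34, SE 0.10). Others were Stk40 (-0.32, and -0.21 without replicate 6), the unconventional myosin gene Myo18a (-0.24), Sel1l of the degradation path for misfolded proteins in the endoplasmic reticulum (-0.22, and -0.15 without replicate 6), the ubiquitin ligase gene Ubr1 (-0.21) and Ift172 of intraflagellar transport in cilia (-0.16). Most of the higher ones were dim, such as Nrg4 (0.18), Krt1 (0.20) and the vomeronasal receptor gene Vmn1r183 (0.78).

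Means more than 1.5-fold apart were found in 12 lower and 7 higher probe sets, of which some are named here after their values were seen. Slbp, which binds the stem-loop of histone messages, had -0.09, 0.38 and 1.02 in heterozygous and 0.02, 1.06 and 2.68 in wildtype embryos, a difference of -0.75 (SE 0.34). All heterozygous embryos and 6 of 8 wildtype embryos lay under the median level of the table. Zcchc17, an RNA-binding zinc finger protein, had 3.21, 4.09 and 4.63 in heterozygous and 4.28, 4.61 and 5.05 in wildtype embryos (difference -0.63, SE 0.20). Replicate 6 decided others. Ccn2, a matricellular protein, differed by 0.59 with it and by 0.24 without it, and the hypoxia gene Egln3 by 0.66 with it and 0.24 without it.

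The partners of Insm1 were measured next. Of 17 listed genes (Insm1, its relative Insm2 and the Kdm1a, Rcor and histone deacetylase machinery) 12 were measured, 9 with a lower and 3 with a higher mean. The median difference was -0.03 against -0.02 over all probe sets. Of the 12, 10 were at or above the median level. There, 79.8% of all probe sets had a lower mean and the median was -0.07. Kdm1a, the demethylase itself, had 7.86, 7.92 and 7.98 in heterozygous and 7.72, 7.90 and 8.04 in wildtype embryos, a difference of 0.01 (95% interval -0.09 to 0.11). Rcor1 differed by -0.12 (95% interval -0.26 to 0.02), Rcor2 by -0.01 and Insm2 by 0.12. Apart from Insm1 no member had an unadjusted p under 0.05. The list median was -0.02 without replicate 6, and it turned to 0.03 after quantile normalization and after median centring.

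Basic helix-loop-helix factors, which drive progenitors toward the neuronal fate, had means on both sides of wildtype, without a call. Of 14 measured (17 listed), 10 had a lower mean, beside 60.5% of all probe sets and 79.8% of the brighter ones, and the median was -0.05. At an unadjusted p under 0.05, 2 were lower and 1 higher, beside 5.13% and 2.35% of all probe sets. The median without replicate 6 was -0.01, with 7 of 14 lower and none at that p. It was 0.01 after quantile normalization (7 lower) and 0.05 with the 75th percentile of each array as a covariate (3 lower). Of the 8331 brighter probe sets, 5848 had a lower mean without replicate 6, 4251 after quantile normalization and 3623 with the covariate. Neurog1, a proneural factor of cortical progenitors, had 3.46, 4.46 and 4.70 in heterozygous and 4.30, 4.72 and 4.95 in wildtype embryos, a difference of -0.42 (SE 0.16, limma adjusted p = 0.658). The lowest value was that of replicate 6, and without it the difference was -0.25. Neurod1, a factor of late basal progenitors and young neurons, had 5.72, 6.20 and 6.72 in heterozygous and 6.26, 6.56 and 6.83 in wildtype embryos (difference -0.35, SE 0.13), and -0.25 without replicate 6. Neurog2, which acts beside Neurog1, had a higher mean by 0.21 (95% interval -0.04 to 0.46). Olig2, a factor of ventral progenitors and glia, differed by 0.24 (SE 0.09) at low levels, with 1.45 to 1.92 in heterozygous and 1.06 to 1.61 in wildtype embryos.

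Basal progenitor genes, the population in which Insm1 is best known, had a lower mean in 13 of 15 measured (16 listed), with a median of -0.11, where 79.8% of all brighter probe sets had a lower mean. The share at an unadjusted p under 0.05 was 2 of 15, both lower, beside 8.32% of the brighter probe sets: Neurog1 and the Notch ligand gene Dll3 (-0.19, SE 0.08, and -0.12 without replicate 6). Eomes, the T-box factor that marks these cells, had 6.44, 6.90 and 6.96 in heterozygous and 6.77, 6.95 and 7.02 in wildtype embryos. Of the heterozygous values 4 fell inside the wildtype range and 2 below it, and the difference was -0.11 (95% interval -0.27 to 0.05). The mean of the list was 5.15 in replicate 6, against 5.46 to 5.69 in the other heterozygous embryos and 5.54 to 5.81 in wildtype embryos. Without that array the median was -0.04 with no member at an unadjusted p under 0.05, and with the 75th percentile of each array as a covariate it was -0.00.

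Apical progenitor genes, expressed by the stem cells along the ventricle, had a median near 0. Of 15 measured (18 listed), 9 had a lower mean, none had an unadjusted p under 0.05, and the median was -0.01. Of the 15, 14 were at or above the median level. There, 79.8% of all probe sets had a lower mean and the median was -0.07. Pax6, their homeobox factor, had 6.01, 6.18 and 6.26 in heterozygous and 5.97, 6.19 and 6.32 in wildtype embryos, a difference of -0.03 (95% interval -0.16 to 0.09). The filament gene Nes (-0.19) and the planar polarity gene Celsr1 (-0.17) had the smallest p of the list, and both intervals included 0. Median centring gave the list a median of 0.05 and quantile normalization 0.03.

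Genes of cortical neurons had lower means almost throughout, in 18 of 19 measured (22 listed), beside 79.8% of all brighter probe sets, with a median of -0.12. At an unadjusted p under 0.05, 6 of 19 were lower and 0 higher, where 8.32% of all brighter probe sets were lower. These were Neurod1, the microtubule proteins Dcx (-0.16, SE 0.06) and Mapt (-0.26, SE 0.10), the deep layer factor Bcl11b (-0.19, SE 0.08), the neurofilament relative Ina (-0.17, SE 0.08) and the adhesion molecule L1cam (-0.25, SE 0.09). L1cam, which guides growing axons, had 5.23, 5.40 and 5.66 in heterozygous and 5.46, 5.64 and 5.84 in wildtype embryos. Of the 6 heterozygous embryos, 3 lay below all wildtype embryos.

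Some well-known neuronal factors differed little. Fezf2, of corticofugal neurons, differed by 0.01 (95% interval -0.16 to 0.18), Neurod6 by -0.06 (95% interval -0.29 to 0.16) and Tbr1 by -0.09 (95% interval -0.21 to 0.03). The list mean lay between 6.59 and 6.93 in heterozygous and between 6.71 and 7.04 in wildtype embryos. Without replicate 6 the median was -0.08 with 3 members at an unadjusted p under 0.05. After quantile normalization it was -0.08 with 14 of 19 lower, after median centring -0.06, and with the 75th percentile as a covariate -0.06 with 1 such member. Of the 8331 brighter probe sets, 4251 had a lower mean after quantile normalization. At an unadjusted p under 0.05, 345 of them were lower without replicate 6 and 322 with the covariate.

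Axon guidance and adhesion genes, which steer growing axons, had a median of -0.18, with 16 of 20 measured (21 listed) at a lower mean, a share near the 79.8% of all brighter probe sets. At an unadjusted p under 0.05, 7 of 20 were lower and 0 higher, beside 8.32% and 0.348% of those probe sets. The 7 were Robo2, Slit1, Sema6d, Plxna4, Dscam, Celsr3 and L1cam, the last also a member of the neuron list. Robo2, a receptor for Slit proteins, had 5.91, 6.14 and 6.39 in heterozygous and 6.29, 6.37 and 6.55 in wildtype embryos, with 5 of 6 heterozygous embryos below all wildtype embryos. The difference was -0.24 (SE 0.07, limma adjusted p = 0.609).

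Its ligand Slit1 had 3.63, 3.97 and 4.03 in heterozygous and 3.95, 4.13 and 4.24 in wildtype embryos (difference -0.20, SE 0.07). The semaphorin Sema6d had 4.98, 5.26 and 5.59 in heterozygous and 5.32, 5.57 and 5.84 in wildtype embryos (difference -0.29, SE 0.10). Both pairs of ranges overlapped. Robo1, the other Slit receptor of cortical axons, differed by -0.08 (95% interval -0.24 to 0.08). Without replicate 6 the list median was -0.14 with 5 members at an unadjusted p under 0.05, and with the 75th percentile covariate it was -0.15 with 6. Quantile normalization brought it to -0.10 with 3, and median centring to -0.12 with 3. Among the 8331 brighter probe sets, 345 were lower at that p without replicate 6 and 322 with the covariate. There were 153 after quantile normalization and 229 after median centring.

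Cajal-Retzius markers, of the early neurons at the cortical surface, had a lower mean in 9 of 10 measured (11 listed), with a median of -0.08 and none at an unadjusted p under 0.05. Lower means made up 60.5% of all probe sets and 79.8% of the brighter ones. Reln, their secreted signal, averaged 6.49 ± 0.39 in heterozygous (SD, n = 6) and 6.56 ± 0.27 in wildtype embryos (SD, n = 8), a difference of -0.08 (95% interval -0.44 to 0.29). Ebf3, a transcription factor of these cells, differed by -0.10 (95% interval -0.24 to 0.04). After quantile normalization the median of the list was -0.01.

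Cell cycle genes were split into phases because Insm1 acts at the time when progenitors leave the cycle. S phase genes had a median of -0.01 (23 of 25 measured, 15 lower) and G2 and M phase genes of -0.04 (21 of 23 measured, 13 lower). Among all brighter probe sets 79.8% had a lower mean. Each list had 2 members lower at an unadjusted p under 0.05, where 8.32% of the brighter probe sets were. In S phase these were Slbp and Chaf1a, the large subunit of a histone chaperone (-0.16, SE 0.07). In G2 and M they were Kif23, a motor of cytokinesis (-0.21, SE 0.08, and -0.14 without replicate 6), and Hmmr, a spindle protein (-0.16, SE 0.07). The S phase median was -0.03 and the G2 and M median -0.02 without replicate 6, and after quantile normalization they turned to 0.04 and 0.03. Among 11 measured E2F and retinoblastoma family genes (13 listed) the median was -0.08. Of the 11, E2f8 and the pocket protein gene Rbl2 (-0.21, SE 0.08) were lower at an unadjusted p under 0.05, beside 8.32% of all brighter probe sets. The median of this family was -0.05 without replicate 6, with 1 member at that p, -0.02 after quantile normalization (6 lower against 9) and 0.01 with the 75th percentile covariate. After quantile normalization 4251 of the 8331 brighter probe sets had a lower mean, against 6648 before it. E2f7, the close relative of E2f8, had 3.98, 4.26 and 4.41 in heterozygous and 4.26, 4.35 and 4.66 in wildtype embryos (difference -0.15, 95% interval -0.31 to 0.01). Genes of cell cycle exit had a median of -0.07 (12 of 14 measured) with none at an unadjusted p under 0.05, and of -0.02 after quantile normalization and 0.02 with the 75th percentile covariate.

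Cdkn1c, an inhibitor that stops the cycle in newborn neurons, had 5.08, 5.64 and 5.93 in heterozygous and 5.33, 5.50 and 5.89 in wildtype embryos, a difference of 0.03 (95% interval -0.22 to 0.29). The heterozygous range held the whole wildtype range. Ccnd2, a cyclin of cortical progenitors, lay between 10.08 and 10.23 in heterozygous and between 10.11 and 10.39 in wildtype embryos (difference -0.09, 95% interval -0.20 to 0.02). Btg2, an antiproliferative gene of progenitors about to form neurons, differed by -0.13, and by -0.03 without replicate 6.

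The Notch pathway, through which neighbouring cells hold each other in the progenitor state, had all 22 listed genes measured, 16 with a lower mean and a median of -0.04. Among all brighter probe sets 79.8% had a lower mean. At an unadjusted p under 0.05, 4 of the 22 were lower, beside 8.32% of the brighter probe sets. Of the ligands, Dll3 and Jag1 (-0.20, SE 0.09) were lower at an unadjusted p under 0.05, while Dll1 differed by -0.05. The inhibitor Numb (-0.13, SE 0.06) and the ligand-activating ubiquitin ligase Mib1 (-0.13, SE 0.06) were lower as well. Rbpj, the DNA-binding partner of the cleaved receptor, was the 1 member higher at that p, with 1.19, 1.51 and 2.23 in heterozygous and 0.50, 1.24 and 1.78 in wildtype embryos (difference 0.43, SE 0.20). The targets Hes5 and Hes1 differed by -0.01 and 0.15. Without replicate 6 the median was -0.01, with 12 of 22 lower and 2 lower members at that p. The median turned to 0.03 after quantile normalization and 0.02 after median centring, with 0 lower members at that p after quantile normalization. Of the 8331 brighter probe sets, 5848 had a lower mean without replicate 6, and 345 were lower at that p.

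Neurosecretory genes are known targets of Insm1 in endocrine cells. Of 18 listed, 17 were measured, 13 had a lower mean, none had an unadjusted p under 0.05, and the median was -0.10. A lower mean was found in 60.5% of all probe sets and 79.8% of the brighter ones. Stx1a, of the vesicle fusion machinery, differed by -0.19 and the vesicle protein Vamp2 by -0.13, both with intervals that included 0. The granin genes Chga and Scg3 differed by -0.20 (95% interval -0.55 to 0.15) and -0.14 (95% interval -0.36 to 0.08). Without replicate 6 the median was -0.05, and with the 75th percentile covariate 0.03.

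**Figure D4:**
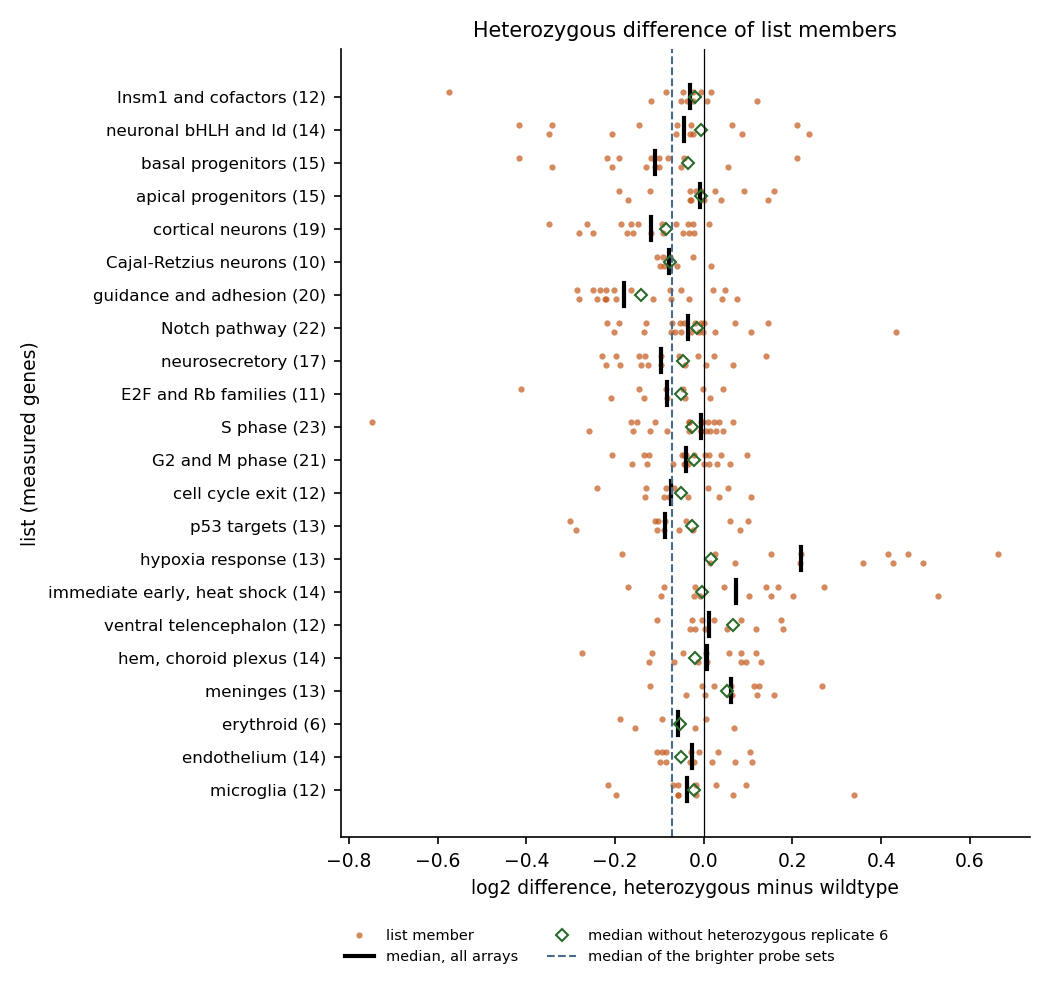
Log2 difference, heterozygous minus wildtype, of each measured gene (points) in the gene lists, with the number measured in brackets, the list median over all arrays (black bar) and without heterozygous replicate 6 (open diamond). The dashed line at -0.07 is the median of all probe sets at or above the median level. Guidance genes (-0.18), cortical neurons (-0.12) and basal progenitors (-0.11, and -0.04 without replicate 6) lie to its left. So do, nearer to it, neurosecretory genes (-0.097), p53 targets (-0.086), E2F and Rb families (-0.082), Cajal-Retzius neurons (-0.078) and cell cycle exit (-0.073). The hypoxia list (0.22) falls to 0.02 without replicate 6.

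The medians of the hypoxia list and of the immediate early and heat shock list followed 1 array. Hypoxia response genes had a median of 0.22, with 12 of 13 measured (15 listed) at a higher mean, and of 0.02 without replicate 6. A higher mean was found in 6583 of all 16661 probe sets and in 1683 of the 8331 brighter ones. Egln3, an oxygen sensor that hypoxia induces, was 5.44 in replicate 6, against 2.78 to 2.96 in the other heterozygous and 2.33 to 2.96 in wildtype embryos. Vegfa, the vascular growth factor, was 7.20 in it, with a heterozygous median of 4.95 and a wildtype range of 4.66 to 4.99. Ankrd37 was the 1 member at an unadjusted p under 0.05 (difference 0.22, SE 0.09), at levels near 1. Higher at that p were 2.35% of all probe sets and 362 of the 8330 below the median level. For immediate early and heat shock genes the median was 0.07 (14 of 17 measured, Nr4a1 higher by 0.20), and -0.00 without replicate 6. Hspa1a, an inducible chaperone, was 2.77 in that array and at most 0.96 in the other heterozygous and 0.73 in wildtype embryos. Targets of p53 had a median of -0.09 (13 of 14 measured), and -0.03 without replicate 6. Zmat3, one of them, had 3.98, 4.33 and 4.42 in heterozygous and 4.37, 4.54 and 4.84 in wildtype embryos (difference -0.29, SE 0.08), and -0.23 without it.

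Markers of tissue that a dissection could carry along had overlapping list means in both genotypes. Ventral telencephalon genes had a median of 0.01 (12 of 16 measured), and the list mean ran from 1.58 to 2.24 in heterozygous and from 1.55 to 2.05 in wildtype embryos. Without replicate 6 the median was 0.07, with 10 of 12 higher against 7 with it, and with the 75th percentile covariate it was 0.14. Of the 8330 probe sets below the median level, 4900 had a higher mean with replicate 6 and 3414 a lower one without it. The 1 ventral member at an unadjusted p under 0.05 was Gsx2 (0.18, SE 0.08), beside 2.35% of all probe sets higher at that p. Genes of the cortical hem and choroid plexus had a median of 0.01 (14 of 14 measured), and of -0.02 without replicate 6, with list means of 2.96 to 3.72 in heterozygous and 3.09 to 3.91 in wildtype embryos. The signalling genes Wnt3a and Wnt5a differed by 0.12 and -0.12, the second by -0.04 without replicate 6. Ttr, the main choroid plexus transcript, spread from 5.55 to 9.53 in heterozygous and from 5.07 to 9.57 in wildtype embryos. Erythroid genes had a median of -0.06 (6 of 10 measured), and the embryonic globin Hbb-y lay between 8.70 and 9.25 in heterozygous and between 8.95 and 9.30 in wildtype embryos. It differed by -0.19 (SE 0.09) and by -0.25 without replicate 6, and the embryonic globin Hba-x by -0.15 and -0.28. Without that array 2 of the 6 erythroid genes were lower at an unadjusted p under 0.05, beside 2.8% of all probe sets. With it there were 0, beside 5.13%.

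Meninges and mesenchyme genes had a median of 0.06 (13 of 13 measured, 10 higher), at a median level of 1.27. The list mean ran from 1.32 to 1.47 in heterozygous and from 1.28 to 1.41 in wildtype embryos. Of its members, Lum (0.27, SE 0.09), Col1a1 (0.12, SE 0.06) and Foxc1 (0.16, SE 0.07) were higher and Cxcl12 (-0.12, SE 0.06) lower at an unadjusted p under 0.05. Over all probe sets 2.35% were higher and 5.13% lower. Only 1 member of this list was at or above the median level. Of the 8330 probe sets below that level, 362 were higher and 161 lower at that p, and 4900 had a higher mean. Endothelium and pericyte genes had a median of -0.03 (14 of 14 measured) with none at that p, and of -0.05 with 1 lower without replicate 6, and list means of 1.65 to 1.83 in heterozygous and 1.65 to 1.91 in wildtype embryos. The vascular receptor genes Tek and Tie1 differed by -0.10 (-0.06 without replicate 6) and -0.09. Microglia genes had a median of -0.04 (12 of 12 measured, median level 0.92) and of -0.02 without replicate 6, with C1qa higher by 0.34 (SE 0.15) and list means of 0.86 to 1.11 in heterozygous and 0.96 to 1.11 in wildtype embryos. With the ventral list mean as a covariate, 63 of the 66 named genes at an unadjusted p under 0.05 still had such a p. That list mean averaged 1.80 in heterozygous and 1.76 in wildtype embryos, so adjusting for it could move a difference between them little. The 66 were also selected for their p in these same arrays, and no conclusion is drawn from this count. The part of the other tissues in the single-gene differences was not tested.

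Insm1 lies on chromosome 2. Of the 25 measured genes on each side of it in the gene order of the GRCm38.p6 table, 24 of 50 had a lower mean, with a median difference of 0.01. At an unadjusted p under 0.05, 5 were lower and 0 higher, beside 5.13% and 2.35% of all probe sets. There were 3 lower without replicate 6, 2 lower after quantile normalization, 3 lower and 4 higher after median centring, and 1 lower and 2 higher with the 75th percentile covariate. Tasp1, a protease that cleaves the Mll proteins, had 2.07, 2.26 and 2.34 in heterozygous and 2.33, 2.40 and 2.58 in wildtype embryos (difference -0.19, SE 0.05), with 4 of 6 below all wildtype embryos. Kat14, an acetyltransferase complex subunit, differed by -0.26 (SE 0.09) and Apmap by -0.29 (SE 0.12). In homozygous embryos these 3 genes differed from wildtype by -0.02, 0.04 and -0.12. The other lower neighbours were Dtd1, at -0.23 in heterozygous and -0.31 in homozygous embryos, and Napb, at -0.17 and -0.19.

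Loss of both alleles gave 94 calls against wildtype (0.564%), 84 lower (0.504%) and 10 higher (0.06%). Their heterozygous values are set beside the homozygous ones here. The same wildtype arrays serve both differences, so shared direction is no independent support. Over the 84 lower probe sets the median difference was -0.17 in heterozygous and -0.46 in homozygous embryos, and over the 10 higher ones 0.06 and 0.52. After quantile normalization the heterozygous medians were -0.09 and 0.11, and after median centring -0.11 and 0.12. Of the 84, 49 were lower in heterozygous embryos at an unadjusted p under 0.05, 34 without replicate 6 and 16 after quantile normalization. Among all brighter probe sets, to which 81 of the 84 belong, these shares were 8.32%, 4.14% and 1.84%. The 84 were chosen as low against the same wildtype arrays, which raises such a count. The mean level over the 84 ran from 4.55 to 4.82 in heterozygous, from 4.33 to 4.46 in homozygous and from 4.80 to 4.99 in wildtype embryos.

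Neurod4, a proneural factor of basal progenitors, had 1.33, 2.34 and 2.88 in heterozygous and 2.26, 2.64 and 3.11 in wildtype embryos. Its difference was -0.34 with 1 allele lost (95% interval -0.73 to 0.05) and -1.28 with both lost. The lowest heterozygous value was that of replicate 6, without which the difference was -0.15. Sh3bgrl2 had 2.80, 3.43 and 3.74 in heterozygous and 3.61, 3.78 and 4.01 in wildtype embryos, with 5 of 6 heterozygous embryos below all wildtype embryos. It differed by -0.41 (SE 0.12) in heterozygous and -0.87 in homozygous embryos. Akna, described above, differed by -0.34 and -0.76.

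Sema6d differed by -0.29 in heterozygous and -0.83 in homozygous embryos, the zinc finger factor St18 by -0.24 and -0.73, and the axonal adhesion molecule Cntn2 by -0.28 (-0.16 without replicate 6) and -0.72. Clmp, an adhesion molecule of epithelia, differed by -0.35 and -0.75, and by -0.20 in heterozygous embryos without replicate 6. Plcb1, a phospholipase C, was nearer to wildtype in heterozygous embryos, at 4.29, 4.49 and 4.66 against 4.28, 4.64 and 4.79, a difference of -0.14 (95% interval -0.30 to 0.02) beside -0.76 in homozygous embryos. All heterozygous values of Plcb1 lay inside the wildtype range.

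The genes that rose with both alleles lost stayed near wildtype with 1 lost. Galnt14, which starts mucin-type O-glycosylation, had 2.14, 2.31 and 2.44 in heterozygous and 2.05, 2.30 and 2.42 in wildtype embryos, while the homozygous embryos lay between 3.10 and 3.52. Its difference was 0.07 in heterozygous (95% interval -0.08 to 0.23) and 1.12 in homozygous embryos. Cdkn1c differed by 0.03 (0.14 without replicate 6) and 0.71, Mcee of propionate breakdown by 0.02 (0.08 without replicate 6) and 0.61, and the olfactory receptor gene Olfr130 by 0.13 and 0.78, the last at the floor of the arrays.

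**Figure D5:**
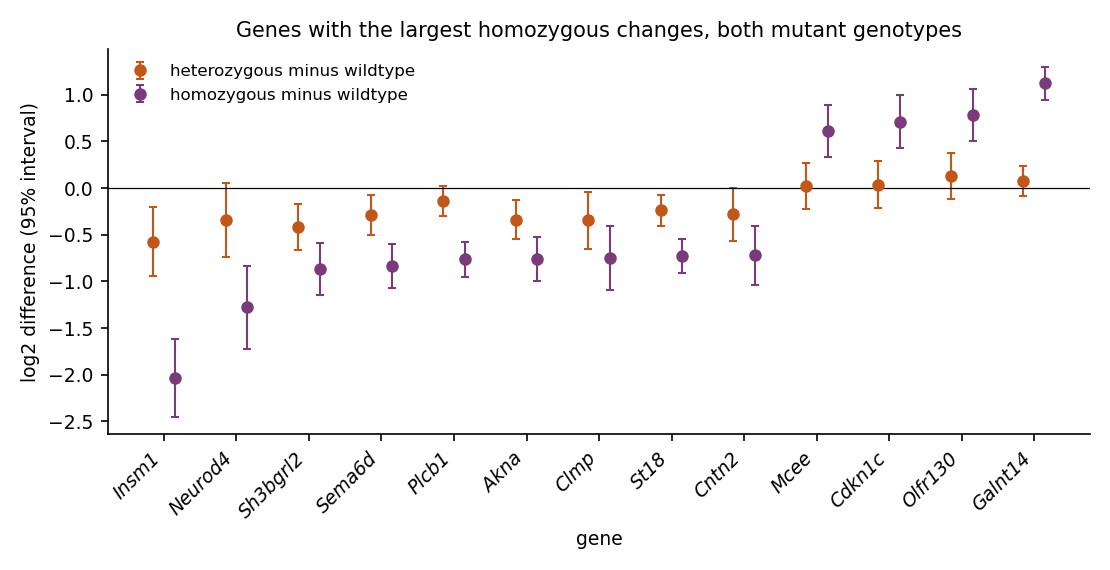
Log2 difference from wildtype with its 95% interval for Insm1, the 8 lower and the 4 higher genes with the largest homozygous change, for heterozygous (left point of each pair) and homozygous embryos (right point). The genes were chosen on the homozygous difference and both use the same 8 wildtype arrays. For the 8 lower genes the heterozygous points lie between -0.41 and -0.14, and for the 4 higher genes between 0.02 and 0.13.

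Whether a heterozygous level departs from the midpoint of the other genotypes was tested over all probe sets. Limma called 1 (0.006%), Galnt14, and 964 (5.79%) had an unadjusted p under 0.05. Its heterozygous mean lay 0.49 below the midpoint (difference -0.49, SE 0.07, 95% interval -0.64 to -0.34, limma adjusted p = 0.0285), close to wildtype. The distance held in size, between -0.45 and -0.53 in 31 alternatives, but the call was kept in 14 of them and lost in 17, with adjusted p from 0.0054 to 0.187. It was lost after quantile normalization (0.187), after median centring (0.0973), without any 1 of heterozygous replicates 1 to 5 (0.0596 to 0.163), without homozygous replicate 4 (0.0951), and without wildtype replicate 2, 4, 5 or 6 (0.0636 to 0.0647).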

How the data were processed

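Per the labels' protocols, TRIZOL-extracted RNA was depleted of ribosomal RNA and made into biotin-labelled sense target, for 1 array per embryo. The deposited log2 signals per probe set were made with RMA (background correction, quantile normalization and probe summary) in Affymetrix Expression Console 1.1, per the submitters' processing notes. The array's genome build is not stated in these sources.

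Tests used 16661 of 23238 probe sets. The other 6577, with identifiers below all those of the platform's probe table, were left out. Of the 16661, 14939 had 1 symbol, 989 several and 733 none, and 14884 matched the GRCm38.p6 gene table. Limma 3.58.1 (R 4.3.3, two-sided moderated test) fitted a mean per genotype to the 18 arrays, with Benjamini-Hochberg adjustment over all tested probe sets and a threshold of 0.05. The fit had no filter, covariate or block, and Insm1 had an exact permutation test too. Medians of gene lists took 1 probe set per gene, that with the highest mean. The procedure was tested on simulated data, where unchanged groups gave 0 calls and 834 unadjusted p under 0.05, and 6 of 136 calls were false among changed ones.

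Genes named are Insm1; the 12 higher and 12 lower with the smallest unadjusted p at or above the median level, and 2 each at any level; list members with an unadjusted p under 0.05 or otherwise the 2 smallest; the 8 lower and 4 higher with the largest called homozygous change; and the 3 neighbours of Insm1 with the smallest p. Other genes are list members or were named after their values were seen. The comparison, the lists and the rule were chosen with earlier results of these data known. Deviations of same-numbered heterozygous and wildtype embryos correlated at -0.0778 to 0.222. Weak correlations cannot exclude a shared litter or processing day, and the labels do not say what the numbers mean, so whether they pair embryos is not known. Pairs of arrays correlated at 0.985 to 0.996, and none were identical.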

Additional observations from a re-analysis of the deposited data

Results flagged for a closer look

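Single embryos that stood far from the others of their group were looked for in 240 combinations of a group and a named gene, list mean or array measure, by a gap test that flags about 1 in 20 groups by chance. It marked 15, of which 9 were heterozygous replicate 6.

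In that array Insm1 was lowest, at 4.02 with the next heterozygous embryo at 4.76. The 75th percentile of the array was 4.5, with the next at 4.69. Akna was lowest at 3.75 (next 4.28) and Zmat3 at 3.98 (next 4.27), and so was the mean of the Notch pathway list at 4.58 (next 4.72). The hypoxia list was highest at 4.97 (next 3.78), its member Egln3 at 5.44 (next 2.96), the immediate early and heat shock list at 3.43 (next 3.05) and its member Hspa1a at 2.77 (next 0.955). What sets this embryo apart was not tested.

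In other heterozygous embryos, Dkk4 was lowest in replicate 3 at 0.756 (next 0.903), as was the endothelium and pericyte list at 1.65 (next 1.76), and Lhx8, a ventral forebrain factor, was highest in replicate 4 at 1.37 (next 1.24). Among wildtype embryos, Ccdc107 was lowest in replicate 4 at 2.8 (next 3.14), Stx1a lowest in replicate 7 at 3.22 (next 3.53), and Nxnl1 highest in replicate 3 at 0.742 (next 0.538).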

How the results depend on the processing

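The count of calls between heterozygous and wildtype embryos was 0 under all 34 alternatives, with the smallest adjusted p between 0.177 and 0.782. Of 66 named genes with an unadjusted p under 0.05, all kept their direction in every alternative that tested them (62 without the dimmest 1 in 3 probe sets). They were selected for that p in these same arrays, so a kept direction largely follows from the choice. Such a p held for 44 after quantile normalization, 51 after median centring, 36 with the 75th percentile as a covariate and 44 without heterozygous replicate 6. Leaving out 1 array at a time, Insm1 differed by -0.65 to -0.42 (exact permutation p = 0.00583 to 0.0249). It lay 0.36 to 0.59 above the log2 midpoint, a distance that comes in part from the log2 scale. The probe sets at an unadjusted p under 0.05 numbered 837 to 1460, with 466 to 1110 lower and 324 to 488 higher, and the lowest count of lower ones was that without heterozygous replicate 6. The lower count was 353 after quantile normalization and 520 without both arrays that stand apart. It was 427 with the 75th percentile as a covariate, beside 686 higher, and 269 after median centring, beside 1391 higher. Without the dimmest 1 in 3 probe sets 154 were higher. With the replicate number as a block, 1331 were lower, and whether the numbers pair embryos is not known. The count of calls against the midpoint was 0 to 3 when 1 array was left out. Homozygous replicate 1 gave 3 when left out and homozygous replicate 2 gave 2, and there were 0 after median centring, after quantile normalization, with the replicate block, with a trended robust prior, with the ventral list as a covariate, over the whole table, without both arrays that stand apart, and at an adjusted p threshold of 0.01. The cause of these moves was not tested. The midpoint has no value in a fit of heterozygous and wildtype arrays alone. Among other values, 37 moved beyond the replicate spread and 3732 did not.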
